A study of Mus musculus and Homo sapiens
Mus musculus with 16 samples.

Results

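The ion channel genes described here are the autosomal protein-coding genes of the mouse whose symbols start with Kcn, Hcn or Cacn, or with Scn and a number. They number 135 of the 20665 autosomal protein-coding genes in the RefSeq table, in 13 subfamilies, and 3 further genes with such symbols lie off the autosomes and were not counted. Their chromatin contacts are the 531 listed interactions, of 58543 in all, in which at least 1 of the paired 10 kb bins holds an end of such a gene. The label of voltage-gated channels covers only some of these genes. The inward rectifiers (Kcnj), the K2P leak channels (Kcnk), the small-conductance calcium-activated channels (Kcnn), the auxiliary subunits and most Cacng proteins, which escort glutamate receptors, are not themselves opened by voltage.

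The contacts came from PLAC-seq, in which chromatin is crosslinked, cut, religated and enriched with an antibody, here against H3K4me3, a histone mark found at active gene starts. The tissue was mouse fetal forebrain at embryonic days E12.5 and E16.5, with 2 libraries at each stage. No genotype, treatment or strain was stated for either stage in the sources used here, nor whether the libraries of a stage came from separate embryos or litters, so a p-value here reflects the spread of these samples alone, which may be technical. The other 12 of the 16 samples of the series were single-cell libraries and were not analysed here.

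Voltage-gated channels are built from pore-forming alpha subunits that open when the membrane potential changes, and auxiliary subunits that set their gating and their number at the cell surface. Potassium channels end an action potential and hold the resting potential, sodium channels start it, and calcium channels couple it to transmitter release and transcription. In the fetal forebrain, dividing progenitors give rise to neurons that acquire these currents in steps as they mature.

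Each library gives, for every interaction that passed the authors' thresholds, the count of read pairs joining its bins. The libraries listed 18413 and 16075 interactions at E12.5 compared with 35291 and 36794 at E16.5, so the E16.5 lists were 2.09 times as long. The listed interactions held 405491 to 911710 read pairs per library. The depth of the libraries is unknown, and bins without a listed interaction may still be in contact. All 13 forebrain marker genes had a listed interaction, and their numbers summed to 196 and 179 at E12.5 and to 264 and 228 at E16.5. Of the 12 tested, Neurod6 and Tbr1 passed the test described below as higher at E16.5 and Emx2 and Dlx2 as lower. The background over all bins was 7.39% and 2.16%, and the median log2 change of the 12 was -0.36. Neurod6, with 0 and 0 at E12.5, entered that test through E16.5 alone and had to differ. Tbr1, with 3 and 3 at E12.5, also reached the sum required for testing only through E16.5. For 11 genes of hindbrain, spinal cord or midbrain the sums were 80 and 57 at E12.5 compared with 45 and 32 at E16.5. En2 and Hoxb1 were at 0. Of the 9 tested, 4 passed as lower at E16.5 (Pax2, Hoxb2, Hoxb3 and Hoxb4) and none as higher. Hoxb2, with 0 and 0 at E16.5, entered through E12.5 alone and had to differ. Pax2 and Hoxb4 also reached the required sum only through E12.5, and the Hoxb3 bin also holds ends of Hoxb5 and Hoxb6. The endothelial markers summed to 0 to 1 in a library, with Pecam1, Cdh5, Tek and Flt1 at 0, and the muscle markers also to 0 to 1. The microglial, erythroid and meningeal lists summed to 2 to 8, 1 to 2 and 9 to 24. Because the libraries were enriched for H3K4me3, listings and read pairs can also differ with the amount of this mark at a bin. Neither the part of the mark nor that of a changing tissue makeup in the results below was tested.

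The starts of 6 channel genes are shown because the contacts described below leave from the bins that hold them, with the exception of Scn2a. For each, the 250 bases before the RefSeq start (GRCm38.p6, the primary sequence of mm10) are given 5′ to 3′ on the gene's strand, with every CG dinucleotide in capitals. Cacna2d1 (chr5:15934441-15934690, plus strand) and Kcnmb4 (chr10:116473524-116473773, minus strand) held 36 and 43 CG dinucleotides.
Cacna2d1: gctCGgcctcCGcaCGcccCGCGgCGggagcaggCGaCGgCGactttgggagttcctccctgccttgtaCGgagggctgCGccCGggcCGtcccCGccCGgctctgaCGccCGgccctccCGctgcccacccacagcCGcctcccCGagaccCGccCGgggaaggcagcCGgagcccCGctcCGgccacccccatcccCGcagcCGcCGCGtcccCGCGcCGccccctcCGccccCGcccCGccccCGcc
Kcnmb4: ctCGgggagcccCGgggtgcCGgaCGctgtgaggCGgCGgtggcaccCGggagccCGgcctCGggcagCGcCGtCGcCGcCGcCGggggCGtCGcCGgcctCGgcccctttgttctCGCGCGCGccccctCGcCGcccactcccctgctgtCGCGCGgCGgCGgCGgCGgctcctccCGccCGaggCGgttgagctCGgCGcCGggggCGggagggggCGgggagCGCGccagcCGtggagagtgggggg
Kcnk10 (chr12:98578214-98578463, minus strand) held 4, and its bin had 24 listings over the 4 libraries, against 12 for Kcnmb4.
Kcnk10: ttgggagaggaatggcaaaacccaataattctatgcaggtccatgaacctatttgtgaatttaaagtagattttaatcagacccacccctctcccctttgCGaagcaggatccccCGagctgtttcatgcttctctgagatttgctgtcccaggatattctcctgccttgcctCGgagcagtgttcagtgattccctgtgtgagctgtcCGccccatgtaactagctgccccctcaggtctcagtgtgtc
Cacna1i (chr15:80286988-80287237, plus strand) and Kcnn3 (chr3:89519914-89520163, plus strand), whose contacts are among those that gained read pairs, held 16 and 10.
Cacna1i: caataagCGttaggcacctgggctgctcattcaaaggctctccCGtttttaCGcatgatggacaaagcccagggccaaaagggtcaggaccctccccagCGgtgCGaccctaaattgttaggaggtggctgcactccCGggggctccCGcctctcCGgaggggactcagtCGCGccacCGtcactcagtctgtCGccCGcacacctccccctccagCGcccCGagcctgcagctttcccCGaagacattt
Kcnn3: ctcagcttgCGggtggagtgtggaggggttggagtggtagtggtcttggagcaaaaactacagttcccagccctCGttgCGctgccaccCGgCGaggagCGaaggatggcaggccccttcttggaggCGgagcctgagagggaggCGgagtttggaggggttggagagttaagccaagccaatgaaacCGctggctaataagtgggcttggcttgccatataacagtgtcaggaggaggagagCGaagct
Scn2a (chr2:65620519-65620768, plus strand), a main sodium channel of young neurons, had no listed interaction in any library at its start bin and held 2. It was chosen as a contrast after its values were seen.
Scn2a: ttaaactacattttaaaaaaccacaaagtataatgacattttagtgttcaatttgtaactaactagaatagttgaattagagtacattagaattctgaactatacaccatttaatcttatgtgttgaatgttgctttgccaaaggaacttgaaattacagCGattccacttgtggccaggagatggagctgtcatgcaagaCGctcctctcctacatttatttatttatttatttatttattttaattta

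Listed interactions at channel gene ends were more numerous at E16.5 than at E12.5, by more than the difference in list length. A channel gene end was touched by 104 and 88 listed interactions at E12.5 and by 323 and 382 at E16.5. The mean number at E16.5 was 3.67 times that at E12.5. As a share of each list these were 0.565% and 0.547% at E12.5 compared with 0.915% and 1.04% at E16.5. The stage means were 0.556% ± 0.012 and 0.977% ± 0.087 (SD, n = 2 each), a ratio of 1.76, and the libraries of the stages did not overlap. With 2 libraries against 2, the exact two-sided permutation test gave p = 0.333, the smallest it can give.

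Of the 135 genes, 84 (62.2%) had a listed interaction at an end in at least 1 library, against 44.4% of all autosomal protein-coding genes. The number of channel genes with one was 39 and 33 at E12.5 compared with 74 and 70 at E16.5. Channel genes are long, with a median of 46.7 kb against 17.5 kb, and long genes were listed more often in general. Within genes shorter than 20 kb, 54.8% of channel genes and 38.5% of all genes were listed. From 20 to 100 kb the shares were 67.3% and 48.3%, and from 100 kb upward they were 63.6% and 60.3%. The share of channel genes was higher in each class, by the least among the longest genes.

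The subfamilies differed in how many members were contacted. All 4 alpha-2-delta genes (Cacna2d, which carry calcium channels to the surface) were listed, as were 7 of 9 calcium alpha-1 genes (the pore), 21 of 29 voltage-gated potassium alpha genes, 3 of 4 Hcn genes (channels opened by hyperpolarisation) and 3 of 4 Cacnb genes (cytoplasmic calcium channel subunits). Among the other potassium channel groups, 11 of 16 auxiliary subunits, 5 of 8 calcium- or sodium-activated channels, 6 of 10 modifier alpha subunits, 8 of 15 inward rectifiers and 6 of 14 K2P genes were listed. Of the sodium channel genes, 5 of 10 alpha genes and none of the 4 beta genes were listed, and 5 of 8 Cacng genes were. Only the sodium beta genes and the K2P genes (42.9%) lay below the 44.4% of all autosomal protein-coding genes. The median gene length ran from 13.85 kb in the sodium beta genes to 284.9 kb in the alpha-2-delta genes, and the shares were not adjusted for it.

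**Figure D1:**
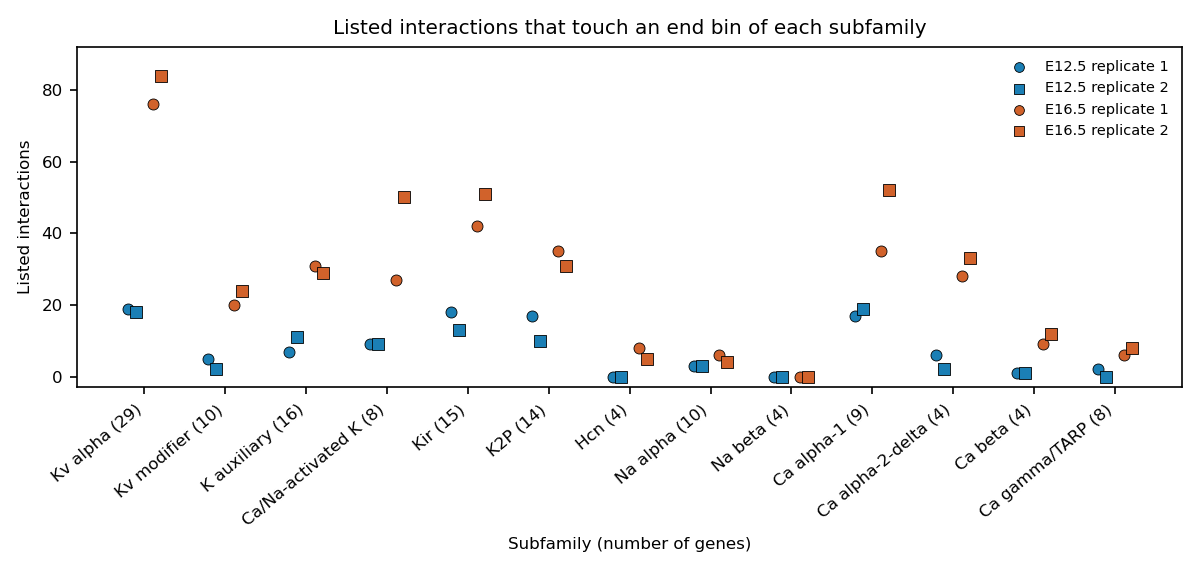
Listed interactions that touch an end bin of each subfamily (vertical axis) by library, with the number of genes of the subfamily in brackets. The 29 voltage-gated potassium alpha genes had 19 and 18 at E12.5 against 76 and 84 at E16.5, and the sodium beta genes were at 0 in all 4 libraries.

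Every subfamily but the sodium beta genes had more listed interactions in both E16.5 libraries than in either E12.5 library. The voltage-gated potassium alpha genes held most, 19 and 18 at E12.5 compared with 76 and 84 at E16.5. The alpha-2-delta genes, with 6 and 2 at E12.5 compared with 28 and 33 at E16.5, had a ratio of 7.63 between the stages. The Hcn genes had 0 and 0 against 8 and 5, and the Cacnb genes 1 and 1 against 9 and 12. The sodium alpha genes had the smallest ratio of the groups with listings at both stages, with 3 and 3 against 6 and 4, 1.67, which lies below the 2.09 of the whole lists. These are raw numbers that include the longer E16.5 lists, and the differences between subfamilies were not tested.

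Contact number, the number of listed interactions of a gene-end bin, was tested between stages with edgeR's quasi-likelihood test over the 2449 bins with at least 10 listings over the 4 libraries. Only 30 of the 135 channel genes reached this sum at their better-connected end, and 54 others had a sum of 1 to 9. Of the 30, 4 passed the threshold of adjusted p under 0.05 (Benjamini-Hochberg) as higher at E16.5, namely Kcnq3, Cacna2d1, Kcnk10 and Kcnmb4, against a background of 7.39% of all bins. None passed as lower (background 2.16%), nor was any lower at an unadjusted p under 0.05 or by DESeq2, while 10 were higher at an unadjusted p under 0.05. For 24 of the 30 genes each E16.5 library had a higher raw number than each E12.5 library (59% of all bins). None had the reverse order (4.16%), and 6 overlapped.

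The median log2 change (E16.5 minus E12.5, after TMM scaling) was 1.11 over the 30 genes, with genes at 0 in E12.5 taken at their lower bound, and 0.19 over all bins. Scaling by library total alone moved the median of all bins to 0.01 and that of the channel genes, as fitted, from 1.14 to 0.97. It left the same 4 channel genes called, while over all bins it gave 156 higher and 88 lower calls against 181 and 53 with TMM. The 4 tested genes with 0 in both E12.5 libraries (Kcnq3, Kcnmb4, Kcnf1 and Kcnj6) entered the test through E16.5 alone and had to differ. Cacna2d1 and Kcnk10, with 2 listings each over the E12.5 libraries, also reached the sum of 10 only through E16.5, so all 4 called genes passed the filter through the stage where they are high. The counts and the median therefore describe the genes that passed the filter and not the family.

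**Figure D2:**
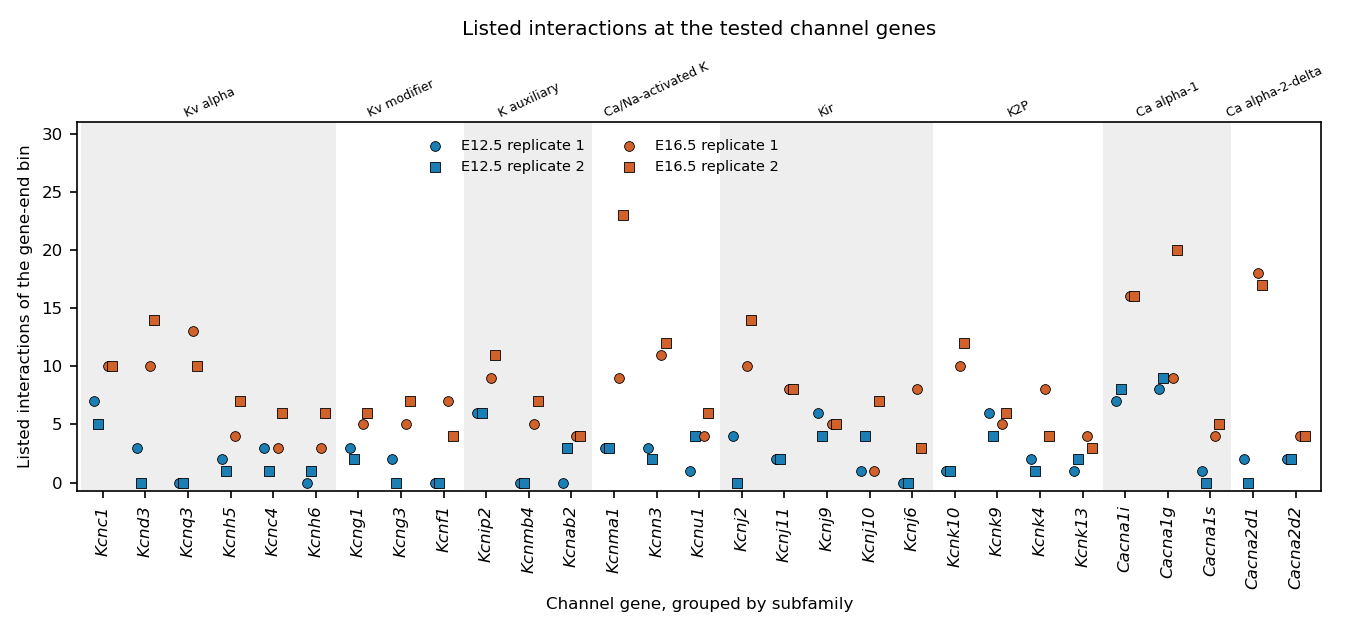
Listed interactions of the better-connected end bin (vertical axis) for 29 of the 30 tested channel genes, grouped by subfamily, in each of the 4 libraries. Cacna2d1 had 2 and 0 at E12.5 compared with 18 and 17 at E16.5, whereas Kcnj9 had 6 and 4 at E12.5 compared with 5 and 5 at E16.5.

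Cacna2d1, the alpha-2-delta subunit that raises the number of calcium channels at the membrane and binds gabapentin, had the largest E16.5 numbers of the genes that rose. Its start bin (chr5:15930001-15940000) had 2 and 0 listed interactions at E12.5 compared with 18 and 17 at E16.5. The stages were far apart, and contact number rose by 3.27 ± 0.63 (log2, SE), or 9.64-fold, with adjusted p = 0.0195. Of its 24 distinct interactions, 22 ended inside the gene, which spans 440.2 kb, and 11 were listed in both E16.5 libraries and in neither E12.5 library. Contacts listed at E16.5 recurred at successive bins from 150 to 200 kb past the start, and the one with most read pairs, at 150 kb, had 35 and 28 at E16.5 and was not listed at E12.5. Cacna2d2, the other tested gene of the group, had 2 and 2 at E12.5 compared with 4 and 4 at E16.5 at the end away from its start. Its start bin had 1 and 0 at E12.5 compared with 3 and 7 at E16.5, a log2 change of 2.37 ± 1.04 (SE) against 0.24 ± 0.64 at the far end, and neither bin passed the test (adjusted p of 0.202 and 0.897).

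Kcnq3, a pore subunit of the M-current that damps repeated firing, had the next largest number among the genes that rose. The bin of its upper end (chr15:66280001-66290000) had 0 and 0 listed interactions at E12.5 compared with 13 and 10 at E16.5. Against a floor of 3 listings over the stage, the number was at least 4.57-fold higher, with adjusted p = 0.0146. Of 16 distinct interactions, 10 ended inside the gene and the others in or beside Lrrc6, Tmem71 and Phf20l1. The one with most read pairs reached 160 kb into Lrrc6, with 26 and 26 at E16.5.

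Kcnk10, the K2P leak channel TREK-2, which responds to stretch and to lipids, rose from 1 and 1 to 10 and 12 at its start bin (chr12:98570001-98580000). The log2 change was 2.61 ± 0.54 (SE), 6.09-fold, with adjusted p = 0.0239. Its interactions lay mostly in 2 blocks. The first was inside the gene, 80 to 140 kb from the start bin, and held the strongest contact at 100 kb with 39 read pairs in an E12.5 library, and with 52 and 53 in the E16.5 libraries. The second lay 200 to 290 kb away in bins without a protein-coding gene, where all 8 interactions were listed at E16.5 alone.

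Kcnmb4, the neuronal beta-4 subunit that slows the calcium-activated BK channel, had 0 and 0 at E12.5 compared with 5 and 7 at E16.5 at its start bin (chr10:116470001-116480000). The number was at least 2.39-fold higher, with adjusted p = 0.0404. Its contacts reached Ptprb on one side, with 35 and 28 read pairs in the strongest at 140 kb, and Myrfl and the end of Rab3ip on the other, out to 480 kb. The gene that encodes the BK pore itself, Kcnma1, is described below.

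These 4 calls did not hold throughout. DESeq2 called none of them (adjusted p from 0.0651 for Kcnq3 to 0.351 for Kcnk10, and none computed for Kcnmb4), and leaving out either E16.5 library ended every call, as it did for the bins of all genes. Without E12.5 replicate 2 only Kcnq3 passed, without E12.5 replicate 1 Kcnd3 and Kcnj2 replaced Kcnk10 and Kcnmb4, and counting each cluster of neighbouring interactions once left no call. Fitted over bins of gene starts, which cover fewer genes, Cacna2d1 and Kcnk10 passed and Kcnmb4 did not (adjusted p = 0.0631). All 4 kept a positive log2 change in every alternative that gave one, with the lowest, 1.44, at Kcnk10 when clusters were counted once.

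**Figure D3:**
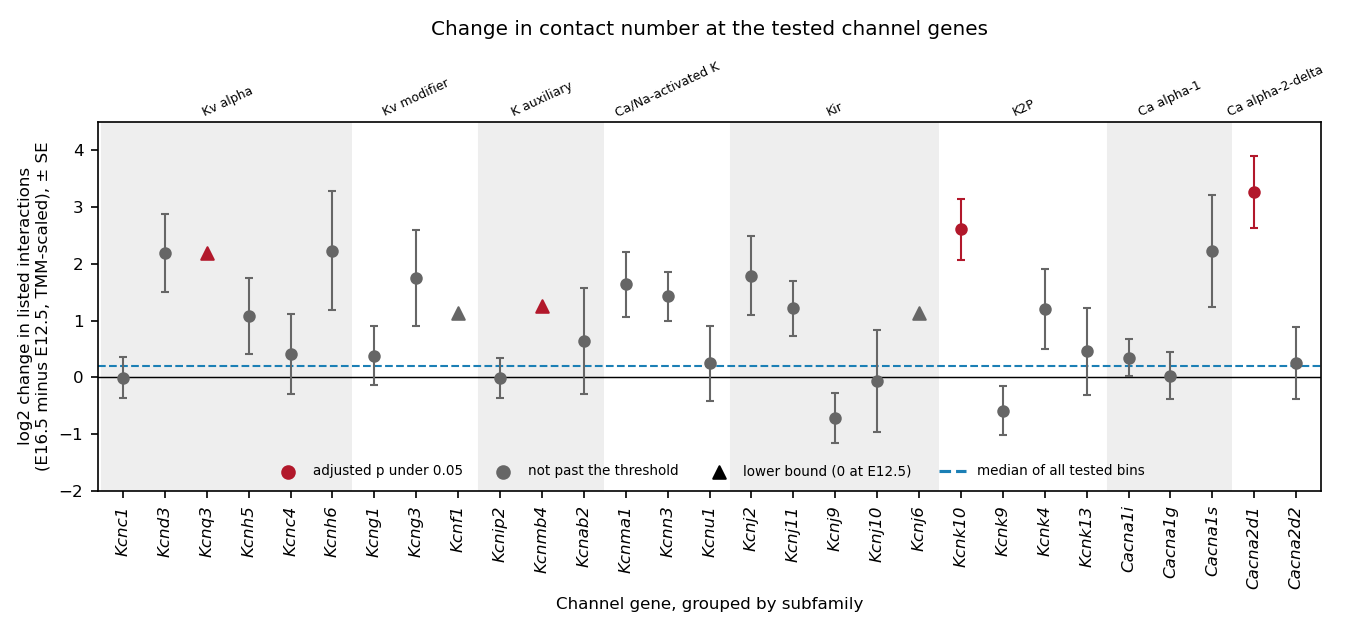
log2 change in listed interactions between E12.5 and E16.5 (vertical axis, points with SE bars) for 29 of the 30 tested channel genes by subfamily. Triangles are lower bounds for genes with 0 at E12.5, red marks the 4 genes past the threshold, and the dashed line is the median of all tested bins (0.19).

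Among the voltage-gated potassium alpha genes, 7 were tested. Of these 6, with Kcnq3, had larger raw numbers in each E16.5 library than in either E12.5 library (59% of all tested bins). Kcnc1 (Kv3.1, which lets interneurons fire fast) had the highest sum of this group, with 7 and 5 at E12.5 compared with 10 and 10 at E16.5. After TMM scaling its log2 change was -0.01 ± 0.36 (SE), and scaled by library total alone it was -0.18. The raw gain therefore did not exceed the gain in listings over all tested bins. Kcnd3 (Kv4.3, an A-type channel of dendrites) had 3 and 0 at E12.5 compared with 10 and 14 at E16.5. Its log2 change of 2.19 ± 0.69 (SE) did not pass (adjusted p = 0.0771), although the stages did not overlap. The strongest contact of Kcnc1 lay 210 kb away in Sergef, with 39 and 46 read pairs at E12.5 compared with 67 and 69 at E16.5. That of Kcnd3 lay inside the gene at 200 kb, with 17 read pairs in an E12.5 library, and with 26 and 24 in the E16.5 libraries, and 7 Kcnd3 contacts were listed in both E16.5 libraries only.

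The modifier subunits form no channel alone and change the gating of other potassium channel subunits. Kcng1 had 3 and 2 listed interactions at E12.5 compared with 5 and 6 at E16.5. Kcng3 had 2 and 0 against 5 and 7, and Kcnf1 had 0 and 0 against 7 and 4. E16.5 was higher without overlap for each of the 3 genes, an order of raw numbers that 59% of all tested bins had. Kcnf1 entered the test through E16.5 alone and had to differ. None of the 3 passed the test, with adjusted p = 0.0600 for Kcnf1. Their strongest contacts, at 150, 360 and 140 kb, all ended in bins without a protein-coding gene.

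Of the auxiliary potassium channel subunits, Kcnip2 (KChIP2, a calcium-binding partner of Kv4 channels) had the highest sum, with 6 and 6 at E12.5 compared with 9 and 11 at E16.5 and a log2 change of -0.01 ± 0.35 (SE). Its bin also holds an end of Armh3, in whose body the strongest contact lay at 130 kb, and the genes cannot be told apart. Kcnab2 (a cytoplasmic Kv beta subunit), with Nphp4 in its bin, had 0 and 3 at E12.5 compared with 4 and 4 at E16.5. Its strongest interaction joined bins 20 kb apart within the gene and was listed once, with 63 read pairs, in an E12.5 library.

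Among the calcium-activated channels, Kcnma1 (the BK pore) had 3 and 3 listed interactions at E12.5 compared with 9 and 23 at E16.5. The E16.5 libraries were far apart, and the log2 change of 1.64 ± 0.57 (SE) did not pass (adjusted p = 0.109). All of its 24 distinct interactions ended inside the gene, which spans 712.8 kb, at 110 to 450 kb from the start. Kcnn3 (SK3, which shapes the slow pause after a spike) had 3 and 2 at E12.5 compared with 11 and 12 at E16.5, with 7 contacts listed in both E16.5 libraries only, and did not pass (adjusted p = 0.127). Kcnu1, a sperm channel whose bin also holds an end of Ash2l, had 1 and 4 against 4 and 6, and its strongest contact reached the shared end bin of Pomk and Fnta at 150 kb.

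The inward rectifiers differed in their values. Kcnj2 (Kir2.1, which holds the resting potential) had 4 and 0 at E12.5 compared with 10 and 14 at E16.5, with contacts 360 to 570 kb away. Kcnj11 (Kir6.2), which shares its bin with an end of Abcc8, the gene of its sulfonylurea receptor partner, had 2 and 2 against 8 and 8. Kcnj9 (GIRK3, opened by G proteins) had 6 and 4 at E12.5 compared with 5 and 5 at E16.5, so its raw numbers overlapped, and its log2 change was -0.73 ± 0.44 (SE). Kcnj6 (GIRK2), a partner of Kcnj9, had 0 and 0 at E12.5 compared with 8 and 3 at E16.5. None of these passed the test (adjusted p of 0.145 for Kcnj2, 0.302 for Kcnj11, 0.527 for Kcnj9 and 0.0856 for Kcnj6), and whether they differ from each other was not tested.

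Of the other K2P genes, Kcnk9 (TASK-3, an acid-sensitive leak channel) had 6 and 4 listed interactions at E12.5 compared with 5 and 6 at E16.5, and its strongest contact lay 480 kb away in Trappc9. Kcnk4 (TRAAK, a stretch-gated leak channel) had 2 and 1 against 8 and 4 in a bin that also holds ends of Esrra and Catsperz. Its strongest contact reached 430 kb into Nrxn2, with 19 and 26 read pairs at E12.5 compared with 36 and 37 at E16.5. Neither gene passed the test.

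The pore-forming calcium channel genes held the 2 highest sums at an end bin, both of low-voltage T-type channels. Cacna1i (Cav3.3) had 7 and 8 listed interactions at E12.5 compared with 16 and 16 at E16.5, a log2 change of 0.34 ± 0.32 (SE). Cacna1g (Cav3.1), whose bin also holds an end of Spata20, had 8 and 9 against 9 and 20, a log2 change of 0.03 ± 0.41 (SE) that turned to -0.15 when scaled by library total alone. Each had 7 contacts listed in all 4 libraries, more than any other channel gene. The strongest Cacna1g contact reached the end bin of Luc7l3 and Ankrd40 at 150 kb, with 57 and 73 read pairs at E12.5 compared with 82 and 98 at E16.5. Cacna1s, the skeletal muscle channel, had 1 and 0 against 4 and 5 in a bin shared with Ascl5, and its strongest contact, to the end of Kif21b at 80 kb, had 107 and 97 read pairs at E16.5.

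No Hcn, sodium channel, Cacnb or Cacng gene reached the sum of 10. Hcn4 had 0 and 0 at E12.5 compared with 3 and 4 at E16.5, in a bin that also holds an end of Rec114. Scn8a (Nav1.6, which starts the spike in mature neurons) had 2 in every library, at the end away from its start. Scn3a (Nav1.3, the sodium channel of embryonic neurons) had 1, 1, 2 and 1. Cacnb1 had 0 and 1 at E12.5 compared with 1 and 7 at E16.5, in a bin shared with an end of Rpl19. Cacnb4 had 1 and 0 against 4 and 3 at the end away from its start, in a bin shared with Arl5a. The start bin of Cacnb4 had no listed interaction. Cacng4, a receptor escort, had 1 and 0 against 4 and 3.

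Contact strength was compared for the bin pairs listed in all 4 libraries, which alone have a count in each. Of 6875 such pairs, 40 touched a channel gene end, of 20 genes. With edgeR's quasi-likelihood test, 4 of the 40 (10%) rose at E16.5, against a background of 5.88%. None fell (background 4.58%), with 1 lower at an unadjusted p under 0.05 and none called by DESeq2 in either direction. By raw count, 24 of the 40 lay above both E12.5 libraries in each E16.5 library (background 50.7%) and 1 lay below (background 7.87%). The median log2 change was 0.30 over the channel contacts and -0.01 over all. The strongest contacts of Kcnc1, Kcnk4 and Cacna1g, given above in raw read pairs, were among the 36 that did not pass. Over all 6875 pairs the read pairs summed to 210341 and 204659 at E12.5 and to 284719 and 261138 at E16.5.

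The contact that rose most joined the start bin of Cacna1i to the end bin of Fam83f (chr15:80670001-80680000), 390 kb away. It had 15 and 14 read pairs at E12.5 compared with 48 and 35 at E16.5, a log2 change of 1.15 ± 0.29 (SE), 2.21-fold, with adjusted p = 0.00506. The adjoining bin, 400 kb away inside Fam83f, had 17 and 16 against 44 and 32, and rose by 0.84 ± 0.28 (log2, SE, adjusted p = 0.0420). The next, at 410 kb, held the most read pairs of this gene, with 16 and 27 against 55 and 41, but missed the threshold (adjusted p = 0.0583). These neighbouring pairs share the Cacna1i bin and are not separate contacts of independent origin.

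The bin of Kcnj11 and Abcc8 (chr7:46100001-46110000) contacted the body of Abcc8 70 kb away, with 22 and 26 read pairs at E12.5 compared with 61 and 54 at E16.5. This contact rose by 0.89 ± 0.26 (log2, SE), with adjusted p = 0.0181. The start bin of Kcnn3 (chr3:89520001-89530000) contacted a bin just past the far end of the gene, 160 kb away (chr3:89680001-89690000), with 20 and 17 read pairs at E12.5 compared with 47 and 40 at E16.5. It rose by 0.87 ± 0.28 (log2, SE), with adjusted p = 0.0341. For each of the 4 contacts the stages did not overlap. The pair that was lower joined Kcnj9 to the end bin of Vangl2 at 300 kb, with 27 and 30 read pairs at E12.5 compared with 22 and 25 at E16.5, and did not pass (log2 change -0.64 ± 0.27 SE, adjusted p = 0.135).

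Taking the authors' expected count of each pair as an offset left none of the 4 calls, turned the Kcnj11 contact to -0.15 and kept the Cacna1i contact at 390 kb at 0.89 (adjusted p = 0.149). With that offset no pair of any gene passed as higher. Leaving out E12.5 replicate 1 or E16.5 replicate 1 ended every call as well, and so did leaving out E12.5 replicate 2, where the Cacna1i contact at 410 kb passed instead (adjusted p = 0.0439).

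**Figure D4:**
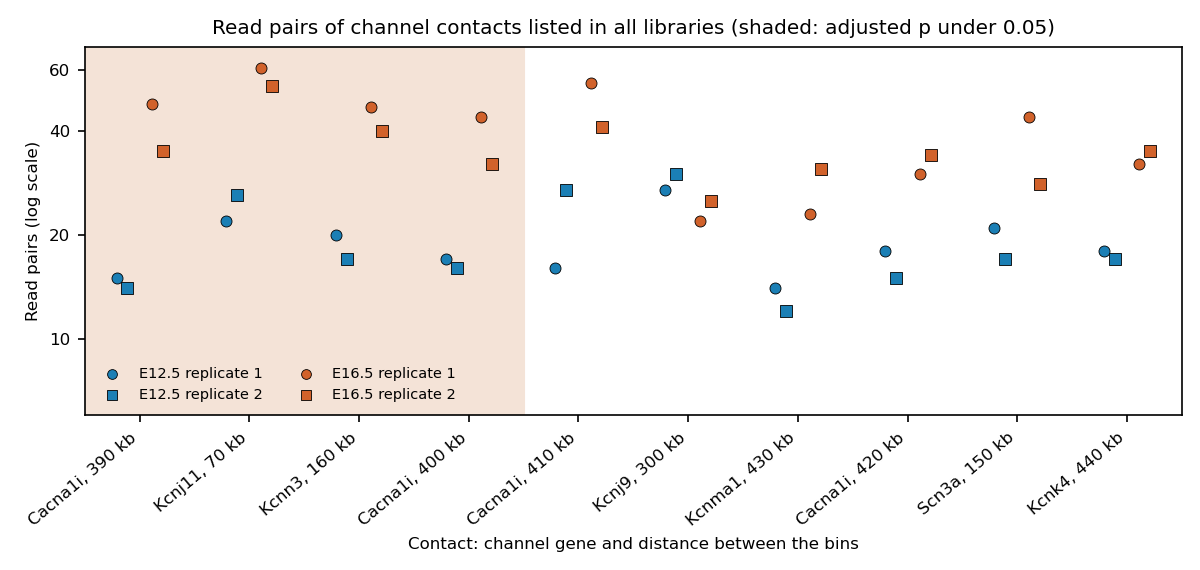
Read pairs (vertical axis, log scale) in each library for the 10 channel contacts with the smallest p among the 40 listed in all libraries, named by gene and distance. The 4 shaded contacts passed the threshold, and at Kcnj9, 300 kb, the E16.5 libraries (22 and 25) lie below the E12.5 libraries (27 and 30).

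How far the lists of channel contacts coincided depended on the measure, since the lists of the stages differ in length. The E12.5 libraries shared 48 channel interactions, 46.2% of one list and 54.5% of the other, and the E16.5 libraries shared 203, 62.8% and 53.1%. Between the stages, 64.8% to 77.3% of an E12.5 list was found in an E16.5 list, and 17.6% to 23.8% of an E16.5 list in an E12.5 list. The Jaccard index (shared over distinct) was 0.333 and 0.404 within the stages and 0.161 to 0.220 between them, against 0.379, 0.405 and 0.259 to 0.282 over all interactions. Of the 531 channel interactions, 122 (23.0%) were listed in both E16.5 libraries and neither E12.5 library, against 15.2% of all interactions. The reverse held for 3 (0.565%, against 1.83%), and 40 (7.53%, against 11.7%) were listed in all 4.

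The genes with the most interactions listed at E16.5 only were Cacna2d1 with 11 and Kcnd3, Kcnq3 and Kcnn3 with 7 each, followed by Kcnk10 and Kcnj11 with 6 each. The 3 interactions listed at E12.5 only belonged to Kcna7, Kcnj9 and Kcnk13. Kcna7, a Kv1 channel of muscle and heart, contacted the end of Trpm4 at 100 kb with 35 and 36 read pairs. Kcnj9 contacted the body of Dcaf8 at 160 kb with 22 and 19. Kcnk13, the leak channel THIK-1 of microglia, contacted a bin without a protein-coding gene at 880 kb with 20 and 16.

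A larger share of channel contacts than of all gene-end contacts lay within a single gene. Both bins lay within 1 gene, at its ends or inside it, in 21.2% and 21.6% of channel interactions at E12.5 and in 28.2% and 30.4% at E16.5. For all interactions with a gene end these shares ran from 10.7% to 14.0%, and the difference was not tested. The stage means for channel genes were 21.4% ± 0.3 and 29.3% ± 1.6 (SD, n = 2 each), without overlap, with an exact permutation p = 0.333, the smallest possible. Those for all gene-end interactions also rose without overlap, from 11.1% ± 0.5 to 13.2% ± 1.2 (SD), with the same exact permutation p. A rise with stage was therefore not particular to channel genes. Long genes offer more room within the distance limits, and the share was not adjusted for length. Besides Kcnma1 and Cacna2d1, Kcnd3 had 11 of 14 and Kcnq3 10 of 16 distinct interactions inside the gene.

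Over the 531 distinct interactions, 142 ended inside another gene, 127 at an end of another gene, 127 inside the channel gene and 125 where no protein-coding gene lies. In 5, both ends of 1 channel gene met, among them Cacna1g, Kcnd3, Kcnn1 and Kcnn3, and those of Cacna1g (50, 51, 46 and 63 read pairs) and Kcnn3 (22, 16, 25 and 30) were listed in all 4 libraries. Another 5 joined 2 channel genes, among them Cacng6 with Cacng7, Cacng7 with Cacng8, Kcna2 with Kcna10 and Kcnc1 with Kcnj11, each in a single E16.5 library. The median distance of channel interactions was 200 and 160 kb at E12.5 and 200 and 200 kb at E16.5, shorter in each library than the 260 to 300 kb of all interactions.

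The contacts left mostly from gene starts. For the 73 channel genes with a known start and ends in separate bins, the start bin had more listed interactions than the other end in 35 genes, fewer in 11, and both were at 0 in 27. The start bins held 481 listings over the 4 libraries and the other ends 80. Over all 12068 such genes these sums were 53171 and 17704, so in listings the lead of the starts was relatively larger for channel genes. That difference was not tested. Among channel genes with unequal ends the start led in 76.1%, close to the 75.1% of all genes.

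The sequence at the starts of channel genes was poorer in CG dinucleotides than that of other genes with a like number of contacts in 1 class. Starts were matched for 99 of the 135 genes, and counted in 300 bases, from 250 before the start to 50 after. The median was 22 CG for the 26 genes whose start bin had a sum of at least 10, 10 for the 29 with a sum of 1 to 9, and 8 for the 44 with none. Over all genes these medians were 23, 19 and 7, so only the middle class stood apart, and the difference was not tested. Within the most contacted class the counts ran from 3 to 57.

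**Figure D5:**
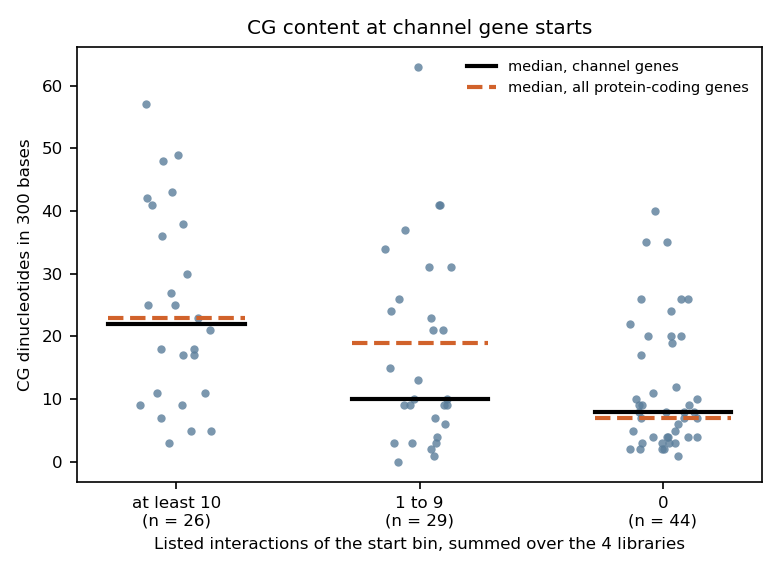
CG dinucleotides in the 300 bases around the start (vertical axis) of 99 channel genes, by the listed interactions of the start bin summed over the 4 libraries. Points are genes, black lines their medians (22, 10 and 8) and dashed lines the medians of all protein-coding genes (23, 19 and 7).

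Short motifs were searched in the same 300 bases on both strands. The GC box GGGCGG was found at 51.5% of channel starts and 47.4% of all starts. The letters TATAAA occurred at 3.03% and 13.5%, and CCAAT at 27.3% and 39.1%. The flanking parts of the site bound by REST, a repressor of neuronal genes outside neurons, were searched as TTCAGCACC, found at 1.01% of channel starts and 0.413% of all, and GGACAGC, found at 11.1% and 6.99%. Of the starts printed above, those of Cacna2d1, Kcnmb4 and Kcnk10 held GGGCGG in this window, and those of Kcnk10 and Kcnn3 held CCAAT. A match is a run of letters and not a bound site.

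Other genes of excitability that carry none of the symbols above gave a comparison. The list held anchors, partners of sodium, potassium and calcium channels, adhesion and scaffold proteins. It also held channels of other symbols, such as Nalcn, Clcn2 and Hvcn1, and the gene of the repressor REST. Of 32 on the autosomes, 18 had a listed interaction (44.4% of all genes had one), and their numbers summed to 17 and 17 at E12.5 and to 44 and 59 at E16.5. Of the 5 tested, 1 was called higher, against the background of 7.39%, and 4 did not pass. The called gene was Rimbp2, which tethers calcium channels to the release machinery, with 0 and 0 at E12.5 compared with 7 and 13 at E16.5 (adjusted p = 0.0208). It entered the test through E16.5 alone and had to differ. Ank3, the anchor of the axon initial segment, had 3 and 2 against 6 and 6, and Nrcam, an adhesion protein of the same place, had 7 and 2 against 7 and 10. Cntnap1, which flanks the node of Ranvier, had 4 and 5 at E12.5 compared with 3 and 2 at E16.5 in a bin shared with Plekhh3 and Ccr10.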

How the data were processed

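Per the submitters' processing notes, reads were handled with BWA and SAMtools on the mouse build mm10. Tool versions, the program that called interactions and the settings it used were not given in the sources used here. The authors deposited, per the file headers, 1 list of called interactions per library, each with a count of read pairs, an expected signal (the model's expected count, whose corrections are not stated), and an FDR (a q-value). The lists hold pairs of 10 kb bins on 19 autosomes, 20 to 1000 kb apart, with a count at least 2 times the expected one and an FDR under 0.01.

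Positions of genes were read from RefSeq (GRCm38.p6), and a gene was represented by whichever end bin had more listings over the 4 libraries. Strand and start were known only for the 99 channel genes with a promoter entry. Bins shared by genes cannot be told apart.

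From the deposited counts, contact number (2449 bins with a sum of at least 10) and contact strength (6875 pairs listed in all libraries) were each fitted over all features with edgeR 4.0.16 (robust quasi-likelihood test, TMM, stage as the only term, R 4.3.3, limma 3.58.1) and adjusted by Benjamini-Hochberg at 0.05. The code was tested on simulated data. Fold changes of genes at 0 at E12.5 are bounds against a floor of 3 listings over the stage. Single values per library were compared with an exact two-sided permutation test over the 6 assignments of libraries to stages. Alternatives covered scaling, DESeq2 1.42.0, the filters, the FDR, list length, clusters, distance, read pairs, gene starts, a replicate block and each library left out.

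Genes named are those past the threshold, the 3 members of each subfamily with the highest sums of at least 10, the contacts past the threshold with the strongest contact of each named gene, and the genes with most contacts listed at 1 stage only. Values of 3 channel genes are not reported here. A few others were named after their values were seen, namely Kcnj6, Scn2a and the highest members of subfamilies without a tested gene. The members, lists and tests were chosen with earlier results of these data known.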

Additional observations from a re-analysis of the deposited data

How the results depend on the processing

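The number of channel genes called higher for contact number, 4 as reported, was 0 with DESeq2, 0 with the quasi-dispersion held at 1 or more, 0 with each cluster counted once, 1 at an FDR under 0.0001, 1 with distances of at most 200 kb, 1 with read pairs in place of interactions, 2 with lists of equal length and 2 with no filter beyond a sum above 0. By start bins it was 3 (Cacna1c, Cacna2d1 and Kcnk10). It ranged from 0 to 4 with 1 library left out. With the replicate number as a block it was 9, adding Kcnd3, Kcnf1, Kcnj2, Kcnj6 and Kcnma1, and contact strength then had 5. The labels do not say that equal numbers pair the libraries, and the deviations of equally numbered libraries correlated at only 0.098 and 0.128 over 2 pairs, so no pairing was assumed. No alternative called a channel gene or contact lower.

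The number of contacts called higher, also 4, was 0 with DESeq2, 0 with the expected count as an offset, 1 when pairs averaging below 40 read pairs were left out, and 0 to 5 with 1 library left out. The share of interactions at channel genes differed by 0.66 percentage points when any bin of the gene counted, against 0.42. The shares were then larger at both stages, and their ratio was 1.63 against 1.76. With lists of equal length the difference was 0.39 and the ratio 1.69. Over all alternatives the ratio ran from 1.63 to 2.01, the highest at an FDR under 0.0001. Genes listed numbered 55 by the start bin, out of the 99 with a known start, against 84 of 135 by either end. The excess of overlap within stages (Jaccard index), 0.183, was 0.118 with lists of equal length. When neighbouring bins matched it was 0.288, but as the share of the members of both lists that had a match. That measure is not the Jaccard index, so 0.288 cannot be set against 0.183.

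Among genes, directions turned only for uncalled ones, with reported log2 changes from -0.06 for Kcnj10 to 0.64 for Kcnab2, and among contacts for 2. Kcnc1 was 0.028 with DESeq2, 0.11 at a sum of at least 5, 0.032 without a filter, 1.20 at the stricter FDR, 0.080 with equal lists, 0.38 with read pairs, 0.40 within 200 kb and -0.21 to 0.22 with a library left out. Kcnip2 was 0.022, 0.11, 0.032 and 0.60 in the first 4 of these, 0.087 with read pairs, 0.38 within 200 kb and -0.12 to 0.067 with a library left out. Cacna1g was -0.15 by library total, -0.28 at the stricter FDR, -0.10 with equal lists, -0.35 with read pairs, -0.10 within 200 kb and -0.61 to 0.42 with a library left out. Cacna1i was -0.62 by clusters. With read pairs, Kcnab2 was -0.38, Kcnu1 -0.050 and Cacna2d2 -0.037. Kcnj10 was 0.050 at a sum of at least 5. With a library left out, Kcnj10 ran from -1.86 to 1.20, Kcnc4 from -0.14 to 1.32, Kcnab2 from -0.35 to 4.85 and Kcnu1 from -0.44 to 1.51. With the offset, the Kcnj11 contact at 70 kb was -0.15 and the Scn3a contact at 150 kb -0.26. The causes were not tested. Listed interactions are few, 10 to 47 per tested gene over 4 libraries, and depth is unknown, so small changes were not detectable.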

Other observations

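Some channel genes were contacted from bins inside the gene that hold no outermost end, which the counts above leave out. Cacna1c, the main L-type calcium channel pore of neurons, had none at its ends, yet the bin of its RefSeq start (chr6:119100001-119110000) had 1 and 3 listed interactions at E12.5 compared with 21 and 26 at E16.5. A fit over start bins in place of end bins used edgeR's quasi-likelihood test. In it Cacna1c rose by 2.72 ± 0.44 (log2, SE), 6.57-fold, with adjusted p = 0.0315. Its bin reached the sum of 10 only through E16.5, the stage where it is high. Over all genes, 88 of 1763 start bins passed as higher in that fit. The start bin of Cacna1e (chr1:154720001-154730000), the R-type channel pore, had 6 and 6 at E12.5 compared with 20 and 24 at E16.5, the highest sum of any channel gene bin, and did not pass (log2 change 1.08 ± 0.30 SE, adjusted p = 0.0925). These genes were singled out after their values were seen.

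Potassium and sodium channel genes showed the same kind of bin. A bin inside Kcnn2, the SK2 channel (chr18:45550001-45560000), had 2 and 1 at E12.5 compared with 11 and 18 at E16.5, and its neighbour had 1 and 1 against 7 and 16. The start bin of Kcnh1, a Kv channel of the ether-a-go-go group, had 3 and 1 against 7 and 8, and that of Scn8a had 0 and 4 against 2 and 7, where the stages overlapped. Neither passed in edgeR's fit over start bins. Their log2 changes were 1.09 ± 0.56 and 0.37 ± 1.03 (SE), with adjusted p of 0.386 and 0.889. A bin inside Kcnq1, a channel gene within an imprinted region, had 6 and 6 at E12.5 compared with 10 and 6 at E16.5, again without separation. The bins inside Kcnn2 and Kcnq1 were not tested.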
